A study of Mus musculus with 6 samples.

Results

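Cadherins and protocadherins are calcium-dependent adhesion proteins, and the genes described here are the members of both families whose mRNAs were read in an RNA bisulfite sequencing (RNA BS-seq) experiment on depolarized mouse cortical neurons. In RNA BS-seq, bisulfite turns unmethylated cytosines into bases read as T, so that a cytosine still read as C is a candidate for 5-methylcytosine (m5C). A gene was taken as a member when its symbol began with Pcdh, or with Cdh and a digit, and when, in each of at least 2 libraries, it was the only gene named for 5 or more cytosines with a coverage of at least 20 reads. A total of 45 genes met this rule, of 11882 gene symbols that met it in the whole data set. They were 15 cadherins, 11 non-clustered protocadherins, and 19 clustered protocadherins (17 of the beta cluster and 2 of the alpha cluster). Another 33 clustered genes, 11 alpha and 22 gamma, were reached only through positions that carry the names of several genes, and these positions were kept apart. Cdh17, Cdh23, and Cdh26 were listed but fell below the rule. When the same position had to qualify in 2 libraries, 35 of the 45 genes remained.

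The neurons came from the cortex of E16.5 C57BL/6 embryos of wild-type genotype, with males and females pooled, and were grown for 7 days in vitro. They were silenced overnight with 1 µM tetrodotoxin and 100 µM DL-AP5, which block sodium channels and NMDA receptors, and this also holds for the 0 h cultures. KCl at 55 mM then depolarized them, with harvest at 0 h, after 2 h, or after 6 h, and poly(A) RNA was sequenced from 2 biological replicates per time point, giving 6 libraries. These are cortical cultures that can hold cells other than neurons, so that with mRNA from whole dishes fewer cells of a type and less RNA per cell cannot be told apart. The libraries listed between 1564646 and 2380612 positions, with a median coverage of 324 to 480 reads, and the 6 h replicate 1 library stood apart with the most positions and the lowest median coverage. A position was listed only with at least 10 reads and at least 1 unconverted read. The activity-induced genes used to check the treatment rose at 2 h, Fos by 7.11 and Nr4a1 by 6.16 on the log2 scale of coverage (limma's adjusted p of 3.09e-07 for both).

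Classical cadherins such as N-cadherin (Cdh2) hold synaptic membranes together and are linked through catenins to actin. The non-clustered or delta protocadherins are adhesion proteins with long cytoplasmic tails, of which several bind the WAVE complex that drives actin branching. The clustered protocadherins lie side by side in alpha, beta, and gamma arrays. Each alpha or gamma gene has its own promoter and its own large first exon, called the variable exon, which is spliced to constant exons shared by the whole cluster, whereas beta genes consist of a single exon. A neuron reads only some of these promoters, a choice that involves the factor CTCF, cohesin, and DNA methylation, and the surface combination lets a neuron tell its own branches from those of others. The deposited gene names of a cluster position often list several genes, up to 26, in variable as well as constant exons. Such positions were placed here by the GENCODE exon that holds them, and the deposited names do not always include the gene of that exon.

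The cytosines of genes outside the clusters that carry the methylation results are shown first, read 5′ to 3′ on the strand of the transcript, with the cytosine and the next 4 bases in capitals. The Pcdh10 cytosine lies in coding sequence at chr3:45392723 (+) and is shown in the 101 bases of chr3:45392673-45392773 (GRCm38), because its level changed with time. The Cdh13 cytosine lies in coding sequence at chr8:118675079 (+) and is shown in chr8:118675029-118675129, because it was the most deeply read of the low-level sites described below.
Pcdh10: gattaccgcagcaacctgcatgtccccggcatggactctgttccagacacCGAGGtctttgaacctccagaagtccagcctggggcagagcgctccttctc
Cdh13: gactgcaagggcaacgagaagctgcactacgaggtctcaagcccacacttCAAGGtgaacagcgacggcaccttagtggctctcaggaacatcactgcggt
Shorter stretches of 21 bases show the other cytosines of single genes that are named below, in Cdh4 (UTR, chr2:179897342-179897362, +), Cdh10 (coding, chr15:18899623-18899643, +), Cdh12 (coding, chr15:21492657-21492677, +), and Pcdh8 (UTR, chr14:79767231-79767251 and chr14:79771255-79771275, both −).
Cdh4: caggcactgaCCGGGcatctt
Cdh10: tctgggcatgCCTGCcccact
Cdh12: ttgtcaacatCACCCttactg
Pcdh8, first: gaagctatttCCAATcacatt
Pcdh8, second: gagggtgggtCTGCGcgtcct
At all 7 of these cytosines the reference context equalled the context deposited with the position.

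The 45 members held 19026 positions, from 28 in Pcdhb13 to 1456 in Pcdh19, and the positions of several names added 6442 in 25 sets. In all 6 libraries, 358 member positions and 300 positions of several names were listed, against 216113 of all 5240657 positions, and 37 of the 45 members had no such position with a coverage of at least 20. Between 63.8% and 71.6% of the member positions of a library rested on a single unconverted read, whereas over all nuclear positions this share was 56.1% to 63.7%. The member share was the higher one in each of the 6 libraries. Members had a median coverage of 256 to 356 reads against 324 to 480 reads over all nuclear positions, and the part of depth in this share was not tested. A further 3157 positions were named only for the predicted genes Gm37013, Gm37388, and Gm42416, although 3117 of them lie in an exon of a protocadherin, 2759 in the exon of 1 gamma gene and 358 in that of 1 beta gene.

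Many of the listed cytosines lay next to each other. Runs of at least 10 neighbouring cytosines held 51.7% and 48.6% of the member positions in the 0 h libraries, 49.7% and 48.4% in those of 2 h, and 65.9% and 48.7% in those of 6 h (replicate 1 before replicate 2). Over all nuclear positions the shares were 50.9% and 47.0%, 52.3% and 47.9%, and 66.4% and 50.5%. The share was thus highest in the 6 h replicate 1 library among members and among all positions alike. There were 696 runs in 33 of the 45 members, and the longest held 166 cytosines of Pcdh10 in the 6 h replicate 2 library. A pair of stretches are shown because a single library made up nearly all of each, with the listed cytosines in capitals. In Pcdh15, a component of the tip links of inner ear hair cells, all 58 cytosines of chr10:74630810-74631044 (GRCm38, +) were listed in the 0 h replicate 1 library.
Pcdh15 run: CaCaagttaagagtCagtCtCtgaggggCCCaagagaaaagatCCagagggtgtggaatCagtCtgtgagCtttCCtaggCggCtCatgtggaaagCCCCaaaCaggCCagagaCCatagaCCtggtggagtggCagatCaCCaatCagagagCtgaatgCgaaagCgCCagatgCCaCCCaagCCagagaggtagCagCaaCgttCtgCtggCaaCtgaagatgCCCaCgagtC
In Cdh9, a type II cadherin, all 56 cytosines of chr15:16850780-16850989 (+) were listed in the 2 h replicate 1 library.
Cdh9 run: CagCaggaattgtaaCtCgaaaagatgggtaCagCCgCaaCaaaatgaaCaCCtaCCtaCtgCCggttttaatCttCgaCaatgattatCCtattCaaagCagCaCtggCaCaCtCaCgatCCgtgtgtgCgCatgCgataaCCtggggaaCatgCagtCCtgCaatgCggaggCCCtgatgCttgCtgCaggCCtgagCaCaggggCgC
Each of the 58 cytosines of Pcdh15 was covered by 26 to 43 reads of which 1 was unconverted, and the other libraries listed 0 or 1 of them. Of the 56 cytosines of Cdh9, 53 had 1 unconverted read at a coverage of 20 to 107, and the other libraries listed 0 to 4 of them. Neither stretch held a cytosine that passed the standard filter described below.

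**Figure D1:**
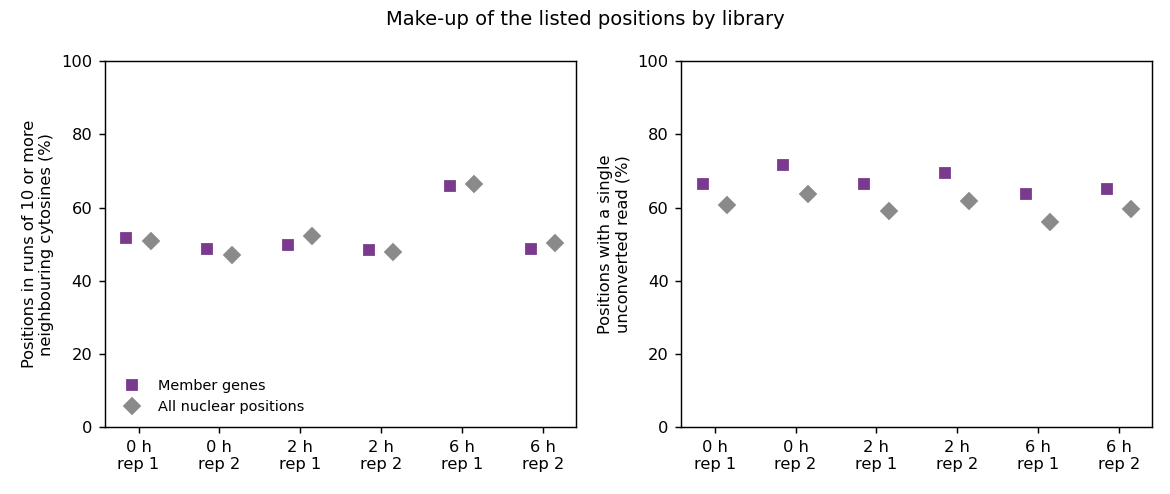
Share of the listed positions that lay in runs of at least 10 neighbouring cytosines (left, %) and share with a single unconverted read (right, %), by library, for the 45 member genes (squares) and for all nuclear positions (diamonds). In runs, the share of the 6 h replicate 1 library was the highest, 65.9% in members and 66.4% over all positions, and members had the higher single-read share in each library.

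The change of coverage over time was followed in windows, since positions listed in all 6 libraries were too few. Each gene or exon was divided into windows of 50 bases, a window was kept when every library listed a cytosine in it, and the log2 coverage was averaged over at least 5 windows after scaling the libraries. The windows were chosen after the positions had been seen. This left 25 features of the families, namely 6 cadherins, 7 non-clustered protocadherins, 2 beta genes, 3 alpha and 5 gamma variable exons, and the constant exons of both clusters. The other 30 members had under 5 such windows. Values given as scaled coverage are reads per base and were compared by limma with Benjamini-Hochberg adjustment over all 6467 features, at an adjusted p of 0.05. Of all features, 40% changed between 0 h and 2 h, 67.9% between 0 h and 6 h, and 64.5% between 2 h and 6 h. Of the 25 features of the families, 7 changed at 2 h (3 up, 4 down), 14 at 6 h (8 up, 6 down), and 14 between 2 h and 6 h (10 up, 4 down). Whether these counts differ from the shares of all features was not tested.

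All 7 non-clustered protocadherins that were measured changed between 0 h and 6 h, 6 up and 1 down, where 34.1% of all features rose and 33.8% fell. Their median log2 change was 1.27 at 6 h, against 0.01 over all features. At 2 h, 2 had risen and 1 had fallen, where 18.3% of all features rose and 21.7% fell, and the median was 0.09 against -0.01. Between 2 h and 6 h, 5 rose and 0 fell, where 32.7% of all features rose and 31.8% fell. They fell into genes that had risen by 2 h (Pcdh8 and Pcdh10), genes whose rise passed the test at 6 h but not at 2 h (Pcdh7, Pcdh9, and Pcdh17, with a smaller rise in Pcdh19), and 1 gene that fell (Pcdh1).

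Pcdh8 (chr14:79766775-79771312, −), known in rat as the activity-regulated protocadherin arcadlin that takes N-cadherin off the synaptic surface, had the largest rise at 2 h among these features. Its scaled coverage was 559 and 543 before KCl, 1588 and 1635 after 2 h of it, and 1870 and 1643 after 6 h (replicates 1 and 2). The 0 h libraries lay below every later library, and the 2 h and 6 h values did not overlap, with 1635 and 1643 as the nearest pair. The log2 change was 1.55 ± 0.07 (SE) at 2 h and 1.67 ± 0.07 at 6 h (limma's adjusted p of 5.57e-05 and 1.46e-05), and 0.12 ± 0.07 from 2 h to 6 h (adjusted p of 0.191). All 56 of its windows were higher in both 2 h libraries than in both 0 h libraries, and all 56 were higher at 6 h, where 31.7% and 43.1% of all single windows were. Over 45 positions listed in all 6 libraries the change was 1.56 ± 0.08 at 2 h and 1.69 ± 0.08 at 6 h (adjusted p of 0.000119 and 4.13e-05), where 13.8% and 30.9% of all genes so measured rose. Of the 9 family features measured in this way, 1 changed at 2 h, 4 at 6 h, and 2 between 2 h and 6 h, where 28.4%, 62.3%, and 52% of all genes changed.

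Pcdh10 (chr3:45378398-45435623, +), a delta protocadherin that takes part in activity-dependent synapse elimination, rose at both times. Its scaled coverage was 651 and 648 before KCl, 879 and 808 after 2 h of it, and 1117 and 1066 after 6 h. The groups did not overlap, and each later time lay higher. The log2 change was 0.38 ± 0.07 at 2 h, 0.75 ± 0.07 at 6 h, and 0.37 ± 0.07 from 2 h to 6 h (adjusted p of 0.00486, 0.000108, and 0.00251). Of its 59 windows, 55 were higher in both 2 h libraries and 58 in both 6 h libraries. Over its 46 positions listed in all libraries the 2 h change was 0.29 ± 0.09, with an adjusted p of 0.0519, so this call rests on the windows.

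Pcdh7, Pcdh9, and Pcdh17 differed between 0 h and 2 h by less than the spread of the replicates and rose by 6 h. Pcdh7 (chr5:57717967-58133230, +) had a scaled coverage of 337 and 285 before KCl, 356 and 241 after 2 h of it, and 854 and 859 after 6 h. Pcdh9 (chr14:93013410-93890679, −) had 318 and 288, 367 and 281, and 786 and 841. Pcdh17 (chr14:84443563-84539002, +), known for its part in corticobasal ganglia circuits, had 389 and 345, 422 and 324, and 917 and 848. In each of these genes the 2 h libraries lay on both sides of at least 1 of the 0 h libraries, and both 6 h libraries lay above all others. The log2 change at 6 h was 1.47 ± 0.18 for Pcdh7, 1.42 ± 0.13 for Pcdh9, and 1.27 ± 0.13 for Pcdh17 (adjusted p of 0.000451, 0.000134, and 0.00023). Every window measured, 25 in Pcdh7, 23 in Pcdh9, and 32 in Pcdh17, was higher in both 6 h libraries than in both 0 h libraries. At 2 h their changes were -0.08 ± 0.18, 0.09 ± 0.13, and 0.01 ± 0.13 (adjusted p of 0.745, 0.632, and 0.947). The 2 h replicate 1 library was the higher one in each gene. Without it Pcdh7 passed the threshold as lower at 2 h, and without the 2 h replicate 2 library Pcdh9 passed it as higher.

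Pcdh19 (chrX:133582860-133688987, −), whose loss causes an X-linked epilepsy and whose product binds N-cadherin, rose less. Its scaled coverage was 274 and 221 before KCl, 283 and 252 after 2 h of it, and 351 and 336 after 6 h, with overlap of the 0 h and 2 h libraries and none with 6 h. The log2 change was 0.48 ± 0.12 at 6 h (adjusted p of 0.0105), and without the 6 h replicate 1 library it was 0.45 with an adjusted p of 0.0669. Its rise from 2 h to 6 h of 0.36 ± 0.12 (adjusted p of 0.0338) was likewise lost without either 6 h library or without the 2 h replicate 2 library. Pcdh1 (chr18:38185914-38212053, −), a delta protocadherin known from airway epithelium as well as brain, was the member that fell. Its scaled coverage was 627 and 572 before KCl, 297 and 288 after 2 h of it, and 282 and 268 after 6 h, so that every later library lay below both 0 h libraries. The log2 change was -1.03 ± 0.08 at 2 h and -1.12 ± 0.08 at 6 h (adjusted p of 0.000198 and 4.22e-05), and all 35 of its windows were lower in both libraries at either time, where 26.2% and 34.8% of all single windows were.

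**Figure D2:**
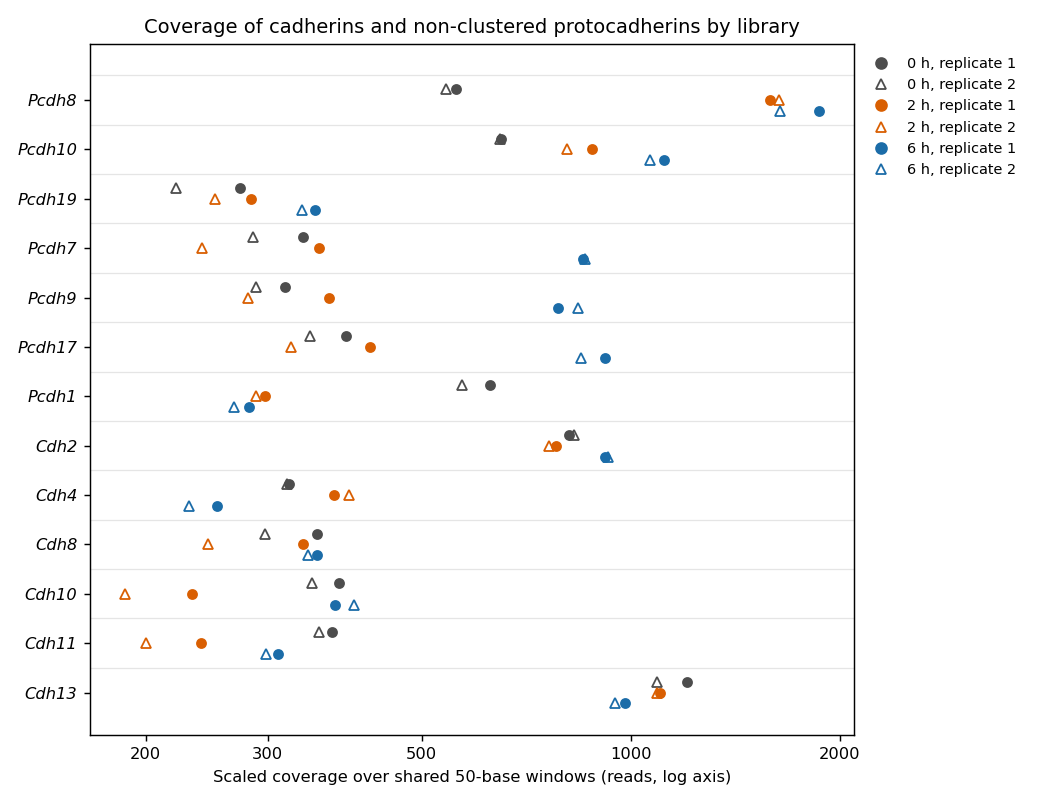
Scaled coverage (reads per base over shared 50-base windows, log axis) of the 7 non-clustered protocadherins and 6 cadherins in each of the 6 libraries, with a colour for each time point, filled circles for replicate 1, and open triangles for replicate 2. Pcdh8 lies at 559 and 543 at 0 h and at 1588 to 1870 later, Pcdh7, Pcdh9, and Pcdh17 separate only at 6 h, and Pcdh1 lies at 627 and 572 at 0 h and at 268 to 297 afterwards.

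Among the cadherins, 3 of 6 changed at 2 h (1 up, 2 down), 3 at 6 h (1 up, 2 down), and 5 between 2 h and 6 h (3 up, 2 down). Of all features 18.3% rose and 21.7% fell at 2 h, 34.1% and 33.8% at 6 h, and 32.7% and 31.8% between 2 h and 6 h. Their median log2 change was -0.13 at 2 h and -0.08 at 6 h. Cdh10 and Cdh11, type II classical cadherins, fell at 2 h and rose again by 6 h. Cdh10 (chr15:18818947-19014236, +) had a scaled coverage of 380 and 347 before KCl, 233 and 187 after 2 h of it, and 375 and 400 after 6 h, and the 2 h libraries lay below all others while 0 h and 6 h overlapped. Its log2 change was -0.80 ± 0.12 from 0 h to 2 h and 0.89 ± 0.12 from 2 h to 6 h (adjusted p of 0.0027 and 0.000763), and 15 of 16 windows followed the fall and 16 of 16 the return, where 36.9% of all single windows rose between 2 h and 6 h. Cdh11 (chr8:102632095-102785642, −) had 371 and 355 before KCl, 240 and 200 after 2 h of it, and 311 and 298 after 6 h, without overlap of any groups. Its changes were -0.73 ± 0.10 and 0.47 ± 0.10 (adjusted p of 0.00206 and 0.00601), and from 0 h to 6 h it was -0.25 ± 0.10 with an adjusted p of 0.0609. This last difference of Cdh11 passed under 6 of 14 other settings, with adjusted p of 0.0109 to 0.0429.

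Cdh4 (chr2:179442431-179899373, +), known as R-cadherin, went the other way. Its scaled coverage was 321 and 320 before KCl, 373 and 393 after 2 h of it, and 253 and 231 after 6 h, and the groups did not overlap. It fell by 6 h (log2 change of -0.41 ± 0.08, adjusted p of 0.00327) and from 2 h to 6 h (-0.66 ± 0.08, adjusted p of 0.000433). The rise at 2 h of 0.26 ± 0.08 (adjusted p of 0.0396) was lost without either 0 h library or the 2 h replicate 2 library, with adjusted p of 0.128, 0.127, and 0.139, and also with total coverage scaling (0.19, adjusted p of 0.0972) and with windows of 100 bases (adjusted p of 0.0514). Cdh2 (chr18:16588877-16809246, −), N-cadherin, had 814 and 830 before KCl, 780 and 762 after 2 h of it, and 917 and 927 after 6 h. Its rise of 0.26 ± 0.05 from 2 h to 6 h (adjusted p of 0.00553) was also seen over 124 positions listed in all libraries (0.29 ± 0.06, adjusted p of 0.0072). The call over positions was lost with the median over positions and without the 6 h replicate 1 library. The 0.17 ± 0.05 from 0 h to 6 h (adjusted p of 0.0306) was lost when any 1 of the 4 libraries compared was left out, with adjusted p of 0.0771 to 0.127, and also with total coverage scaling (0.10, adjusted p of 0.138) and with windows of 100 bases (adjusted p of 0.0611). Over the 124 positions of Cdh2 it was 0.12 ± 0.06 and did not pass (adjusted p of 0.109).

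Cdh13 (chr8:118283733-119324921, +), T-cadherin, which is held in the membrane by a lipid anchor and has no cytoplasmic tail, had a scaled coverage of 1204 and 1090 before KCl, 1101 and 1093 after 2 h of it, and 980 and 948 after 6 h. Both 6 h libraries lay below all others, and the log2 change was -0.25 ± 0.07 at 6 h (adjusted p of 0.0138). It was lost without the 0 h replicate 1 library or the 6 h replicate 2 library (adjusted p of 0.0978 and 0.0809). The change from 2 h to 6 h of -0.19 ± 0.07 (adjusted p of 0.0436) was lost without any 1 of the 4 libraries compared, with total coverage scaling (adjusted p of 0.0541), and with windows of 100 bases (0.0742). Over the 137 positions of Cdh13 listed in all libraries, the change was -0.29 ± 0.08 at 6 h (adjusted p of 0.0231) and -0.12 ± 0.08 from 2 h to 6 h, which did not pass (adjusted p of 0.259). The 6 h call over positions was lost without the 0 h replicate 1 library or either 6 h library. Cdh8, a type II cadherin measured over 6 windows, had 353 and 297, 337 and 246, and 353 and 343, with overlapping libraries at 0 h and at both later times. Its changes of -0.17 ± 0.16 at 2 h and 0.10 ± 0.16 at 6 h did not pass the threshold (adjusted p of 0.425 and 0.584). Without the 2 h replicate 1 library the change of Cdh8 was -0.41 at 2 h and 0.51 from 2 h to 6 h, and both passed (adjusted p of 0.0188 and 0.00347).

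In the clusters, the constant exons stayed under the threshold while some variable exons passed it. The constant exons of the alpha cluster had a scaled coverage of 912 and 850 before KCl, 890 and 866 after 2 h of it, and 846 and 841 after 6 h, and those of the gamma cluster had 1417 and 1280, 1323 and 1353, and 1366 and 1242. The gamma libraries overlapped at all times and both 6 h alpha libraries lay just below the others, and the log2 change at 6 h was -0.06 ± 0.06 for alpha and -0.05 ± 0.08 for gamma (adjusted p of 0.396 and 0.591). With windows of 100 bases the alpha constant exons passed the threshold at 6 h. Of the 12 features of the clusters, 1 changed at 2 h (down), 4 at 6 h (1 up, 3 down), and 4 between 2 h and 6 h (2 up, 2 down), where 40%, 67.9%, and 64.5% of all features changed. Their median change at 6 h was -0.12, against 0.01 over all features.

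Pcdhgc3 and Pcdhgc4, neighbouring C-type genes at the end of the gamma cluster, whose promoters lie outside the random choice, moved in opposite directions. Pcdhgc3 acts in dendrite branching and Pcdhgc4 in the survival of inhibitory neurons. The Pcdhgc3 exon had a scaled coverage of 554 and 546 before KCl, 594 and 634 after 2 h of it, and 859 and 859 after 6 h. The Pcdhgc4 exon had 585 and 556, 445 and 454, and 304 and 272. The groups did not overlap in either exon. From 0 h to 6 h, Pcdhgc3 rose by 0.64 ± 0.06 and Pcdhgc4 changed by -0.99 ± 0.08 on the log2 scale (adjusted p of 0.000146 and 7.27e-05). All 35 windows of Pcdhgc3 were higher and all 18 windows of Pcdhgc4 were lower in both 6 h libraries than in both 0 h libraries. At 2 h, Pcdhgc4 had changed by -0.34 ± 0.08 (adjusted p of 0.0138), which was lost without either 0 h library (adjusted p of 0.0974 and 0.0548), and Pcdhgc3 by 0.16 ± 0.06 (adjusted p of 0.0785). The difference between the changes of these exons was not tested.

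Among the other variable exons, that of Pcdhga12 had a scaled coverage of 259 and 241 before KCl, 226 and 219 after 2 h of it, and 201 and 171 after 6 h, and its change of -0.43 ± 0.10 at 6 h (adjusted p of 0.00901) was lost without the 0 h replicate 1 library or the 6 h replicate 2 library (adjusted p of 0.0635 and 0.0532). The Pcdha4 exon, with 5 windows, had 312 and 266, 303 and 267, and 239 and 222, and changed by -0.32 ± 0.11 at 6 h (adjusted p of 0.0358). That change was lost without the 0 h replicate 1 library or either 6 h library (adjusted p of 0.208, 0.0753, and 0.163), with windows of 100 bases (0.0673), and with a minimum of 2 windows (0.0588). The Pcdha4 exon also changed by -0.30 ± 0.11 from 2 h to 6 h (adjusted p of 0.0464), which was lost under 6 of 13 other settings, among them TMM scaling (adjusted p of 0.0506) and total coverage scaling (0.0521). The exon of Pcdhac2, the C-type gene at the end of the alpha cluster, had 601 and 554, 544 and 514, and 639 and 621. It rose by 0.25 ± 0.07 from 2 h to 6 h (adjusted p of 0.017), which was lost without either 6 h library (adjusted p of 0.0982 and 0.0653). The Pcdha5, Pcdhga11, and Pcdhgb6 exons and the Pcdhb7 and Pcdhb9 genes did not pass the threshold in any comparison, with log2 changes at 6 h of -0.23 to 0.11. The Pcdhb7 libraries were 227 and 217 at 0 h and 187 and 188 at 2 h, a change of -0.25 ± 0.10 with an adjusted p of 0.095.

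**Figure D3:**
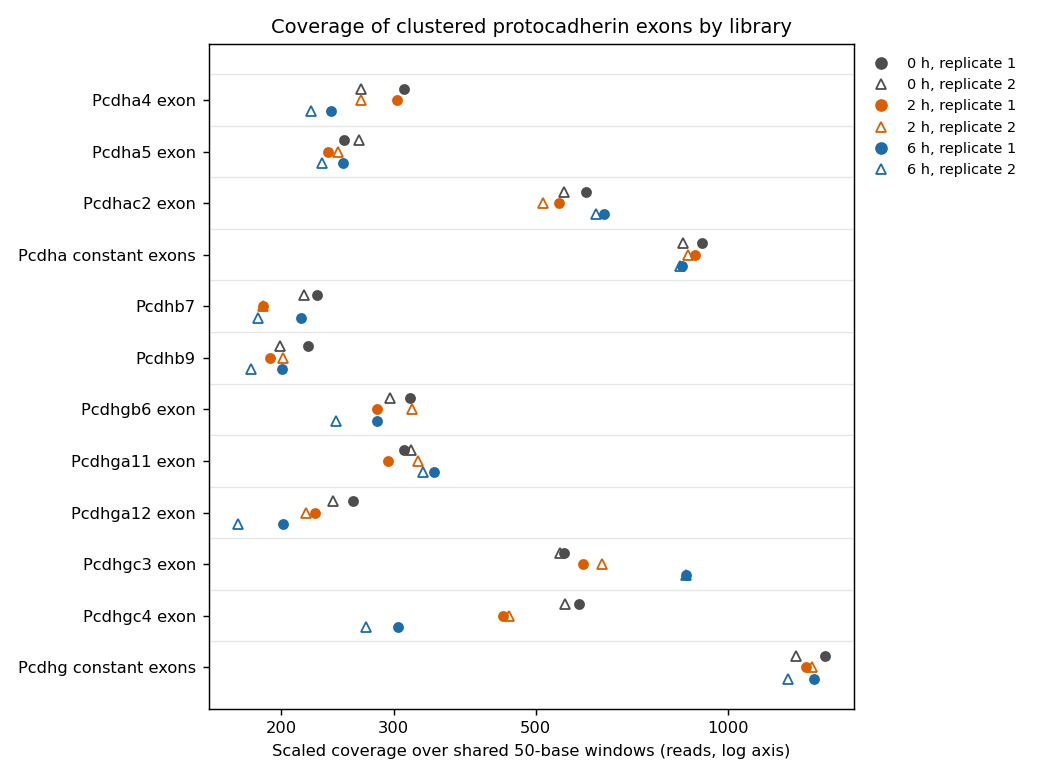
Scaled coverage (reads per base over shared 50-base windows, log axis) of the variable exons, the single-exon beta genes, and the constant exons of the protocadherin clusters in each of the 6 libraries, with colours for time, filled circles for replicate 1, and open triangles for replicate 2. The Pcdhgc3 exon goes from 554 and 546 to 859 and 859, the Pcdhgc4 exon from 585 and 556 to 304 and 272, and the constant exons of both clusters change by -0.06 and -0.05 on the log2 scale.

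Positions that carry several cluster names, kept as sets of their own, gave 5 sets with at least 5 positions listed in all libraries. The set of 13 alpha names (34 positions) had a scaled coverage of 1936 and 1704 before KCl, 1682 and 1464 after 2 h of it, and 1694 and 1739 after 6 h, and the set of 22 gamma names (145 positions) had 1645 and 1317, 1383 and 1304, and 1479 and 1498. Neither passed the threshold in any comparison (adjusted p of 0.143 to 0.474 for alpha and 0.289 to 0.902 for gamma). The set of 24 names (66 positions), which includes Pcdhga1 and the predicted gene Gm38182, had 4760 and 4697, 4558 and 4428, and 4177 and 3966 and changed by -0.22 ± 0.05 at 6 h (adjusted p of 0.0109), where 31.4% of all genes so measured fell. This call was lost without the 0 h replicate 1 library or the 6 h replicate 2 library, where the change was -0.20 and -0.18. The sets of 23 and 26 names passed in no comparison.

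For 30 members the change of coverage could not be followed. The 9 cadherins among them (Cdh6, Cdh7, Cdh9, Cdh12, Cdh15, Cdh18, Cdh20, Cdh22, and Cdh24) held 29 to 750 positions at median coverages of 16 to 217 reads per library. The 4 non-clustered protocadherins (Pcdh11x, Pcdh15, Pcdh18, and Pcdh20) held 213 to 632 positions at 14 to 357 reads. The 17 clustered genes (15 beta genes, Pcdha1, and Pcdha2) held 28 to 271 positions at 13 to 197 reads. Cdh15, the cadherin of muscle cells, had 0 positions at a coverage of 20 in the 6 h replicate 2 library and 1 in the 6 h replicate 1 library. Since a cytosine is listed only with an unconverted read, these medians describe listed positions and not the mRNA, and no change of coverage is given.

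The other genes of cadherin adhesion and of promoter choice were followed in the same way. Of 31 adhesion partners 27 were measured, and 7 rose and 7 fell at 2 h, where 18.3% of all features rose and 21.7% fell, while 8 rose and 6 fell at 6 h, where 34.1% rose and 33.8% fell. The largest changes at 6 h were in Fer, a tyrosine kinase of the cadherin complex (-1.57 ± 0.13), Nectin3, an adhesion protein of the nectin family (1.44 ± 0.13), Pkp4, a catenin of the p120 family (1.41 ± 0.05), and Ptk2b, a focal adhesion kinase (-1.40 ± 0.07). Their adjusted p values were 9.74e-05, 0.000108, 1.04e-05, and 1.96e-05. Among catenins, Ctnna1 rose by 0.74 ± 0.07, Ctnnd1 by 0.63 ± 0.06, and Ctnnb1 by 0.27 ± 0.06 at 6 h (adjusted p of 0.000123, 0.000156, and 0.00734), Ctnna2 rose by 0.21 ± 0.05 (adjusted p of 0.0128), and Arvcf changed by -0.33 ± 0.07 (adjusted p of 0.00522). Ctnnd2 and Jup did not pass the threshold at 6 h (adjusted p of 0.124 and 0.220). They had changed by 0.39 ± 0.06 and -0.50 ± 0.11 at 2 h (adjusted p of 0.00255 and 0.0119). From 2 h to 6 h they changed by -0.28 ± 0.06 and 0.66 ± 0.11 (adjusted p of 0.0052 and 0.00188). The median of the partners at 6 h was 0.02, against 0.01 over all features.

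Of 17 other genes of the cadherin superfamily 8 were measured, and 4 rose and 2 fell at 6 h, against the same 34.1% and 33.8% of all features. Fat1, a giant cadherin, had a scaled coverage of 145 and 134 before KCl, 183 and 177 after 2 h of it, and 479 and 426 after 6 h, a change of 1.70 ± 0.09 (adjusted p of 2.14e-05). Dchs1, the partner of Fat4, and Clstn3, a synaptic calsyntenin, rose by 0.55 ± 0.09 and 0.64 ± 0.07, and Celsr3, which guides axon tracts, fell by 0.52 at 6 h (adjusted p of 0.00152, 0.000288, and 0.00138). Of 13 genes of protocadherin promoter choice 12 were measured, and 0 rose and 3 fell at 2 h, whereas 3 rose and 2 fell at 6 h. Of all features 18.3% rose and 21.7% fell at 2 h, and 34.1% rose and 33.8% fell at 6 h. The 3 that fell at 2 h were Setdb1, a histone H3K9 methyltransferase, with -0.64 ± 0.06, Wiz with -0.44 ± 0.10, and Ctcf with -0.38 ± 0.06 (adjusted p of 0.000468, 0.016, and 0.00341). Setdb1 had 490 and 490 before KCl, 318 and 310 after 2 h of it, and 470 and 469 after 6 h, and Ctcf had 530 and 515, 406 and 399, and 564 and 554, and at 6 h neither differed from 0 h past the threshold. The cohesin genes Wapl and Stag1 rose at 6 h by 0.73 ± 0.21 and 0.59 ± 0.21, and Smc1a fell by 0.56 (adjusted p of 0.0183, 0.0429, and 0.00048).

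Markers of the cell types of such a culture moved as well. Of 7 astrocyte markers 6 were measured, and 5 of them fell at 6 h, where 33.8% of all features fell, and their summed scaled coverage was 6385 and 6464 before KCl, 6140 and 5891 after 2 h of it, and 4752 and 4514 after 6 h. The microglial marker Cx3cr1 had 378 and 377, 263 and 275, and 217 and 215, and Csf1r, C1qa, and Tmem119 were not listed. All 10 neuronal markers were measured. At 2 h, 3 of them rose and only Tubb3 fell, from 8501 and 8076 to 4429 and 4248. At 6 h, Gad1, Gad2, and Snap25 rose and Tubb3 and Slc17a7 fell. Of all features 18.3% rose and 21.7% fell at 2 h, and 34.1% rose and 33.8% fell at 6 h. The neuronal sum was 20828 and 20106 before KCl, 18524 and 18644 after 2 h of it, and 19718 and 19947 after 6 h. The oligodendrocyte sum, over 3 of 7 markers, was 2561 and 2685 in the 0 h libraries, 1918 and 1985 in those of 2 h, and 2855 and 2770 in those of 6 h, and that of progenitors, over 3 of 7, was 2418 and 2590, 1941 and 1858, and 2298 and 2028. These sums join markers that moved in opposite directions. The log2 changes at 6 h were 0.24 for Olig1, 0.37 for Olig2, and -0.49 for Pdgfra. For Nes, Hes5, and Top2a they were 0.78, -1.14, and -0.56. Endothelial and fibroblast markers had too few windows to be measured, and Cldn5, Kdr, Flt1, and Tek were not listed. The part of these cell types in the changes of cadherin coverage was not tested.

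Methylation was described next at the few cytosines that pass the standard filter of the study's methods, which asks for 20 reads of coverage, 6 unconverted reads, and a level of 10% or more. In the families, 4 and 2 positions passed in the 0 h libraries, 8 and 5 in those of 2 h, and 7 and 5 in those of 6 h. These were 0.0548% and 0.0310%, 0.104% and 0.0718%, and 0.0668% and 0.0591% of the family positions covered by at least 20 reads, against 0.174% to 0.253% of all positions. The family share was the lower one in each of the 6 libraries, but it rests on 2 to 8 positions per library. The share of all positions includes mitochondrial ones, and the part of depth in the difference was not tested. In all, 16 family positions passed in some library, of which 12 passed in only 1 and 4 passed in replicates 1 and 2 of the same time point. Not counted are 3 positions in the Pcdhga8 exon that are named only for predicted genes and passed in 1 library. All 4 repeated sites lie in clustered protocadherins on chromosome 18. The other steps that the study used to remove false sites were not repeated here.

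The 12 positions that passed once rested on 6 to 10 unconverted reads each. The Cdh10 cytosine had 7 of 40 reads unconverted (17.5%) in the 2 h replicate 2 library and 1 of 87 (1.15%) in the 0 h replicate 1 library. The Cdh12 cytosine had 6 of 55 (10.9%) in the 6 h replicate 2 library, the only library to list it. In Pcdh8, 1 cytosine had 8 of 80 (10%) and another had 6 of 24 (25%), both in the 2 h replicate 1 library. The first of them had 2 of 53 in the other 2 h library (3.77%). The others were 5 in Pcdhb8, Pcdhb10, Pcdhb11, Pcdhb14, and Pcdhb19, at 16.2% to 26.1%, and 3 neighbouring cytosines in the alpha constant exons, at 12% to 13.6% in the 6 h replicate 1 library and at 1.25% to 2.47% elsewhere. Other cytosines within 50 bases of these 3 reached 13.6% to 16.7% in that same library. No time course can be drawn from these.

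For the 4 repeated sites Fisher's exact test (2-sided) was run on reads added over both replicates, adjusted over all sites of a comparison. A site entered a comparison when both replicates of at least 1 of its time points passed the standard filter. Sites could thus enter through the time point where they were high, which favours differences from it. Fisher's test does not allow for this choice. This test does not count spread between replicates beyond read sampling, and in simulated data with such spread it called 106 unchanged sites beside 67 of 200 changed ones. limma and a quasi-binomial model, which do count it, called 0 of these 4 sites in any comparison, with at most 1 of the 4 at an unadjusted p under 0.05. In the same simulation they recovered 3 and 0 of the 200 changed sites. Its spread (a beta-binomial overdispersion of 0.01) was set and not estimated from these libraries. On the real sites of 0 h vs 2 h limma called 110 of 2527. The simulation therefore does not give the error rates of the calls made here. The intervals shown cover counting error only, because PCR copies were not separated. Between 0 h and 2 h, 2 of 4 sites rose, where 8.51% of 2527 tested sites rose and 2.06% fell. Between 0 h and 6 h, 1 of 3 fell, where 6.91% of 2661 changed, 5.07% up and 1.84% down. Between 2 h and 6 h, 2 of 4 fell, where 6.06% of 2772 rose and 5.92% fell.

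The Pcdhb17 site (chr18:37485722, +, coding sequence) was read in 36 of 273 and 19 of 198 reads at 0 h, in 50 of 202 and 38 of 162 reads at 2 h, and in 29 of 216 and 29 of 214 reads at 6 h. Its level was 13.2% and 9.60%, 24.8% and 23.5%, and 13.4% and 13.6%, so that both 2 h libraries lay above all others. The mean went from 11.4% ± 2.54 (SD, n = 2) to 24.1% ± 0.916 and back to 13.5% ± 0.0887. The level rose by 12.7 points and then fell by 10.6 points (Fisher's exact test, adjusted p of 6.69e-05 and 0.0026). With 9.60% in the 0 h replicate 2 library, the site entered the test of the rise only through 2 h, where it was high. The fall was lost without the 2 h replicate 1 library (adjusted p of 0.0527), and the difference of 2.10 points between 0 h and 6 h did not pass. The highest level of any other cytosine listed within 50 bases was 1.75%.

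A pair of repeated sites lies in the variable exon of Pcdhga11, on which the deposited list puts several gamma names. The first (chr18:37756425, +, coding) had levels of 23.0% and 21.1% before KCl, 42.6% and 25.8% after 2 h of it, and 28.2% and 33.8% after 6 h. All later libraries lay above both 0 h libraries, and the 2 h replicates were far apart (34.2% ± 11.9, SD, n = 2). The rise of 12.1 points at 2 h passed Fisher's exact test (adjusted p of 0.0385), and without the 2 h replicate 1 library it was 3.68 points with an adjusted p of 0.974. It was also lost without either 0 h library (adjusted p of 0.146 and 0.218). The second (chr18:37757946, +, coding) had 15.9% and 18.2% before KCl, 18.6% and 16.1% after 2 h of it, and 8.84% and 9.91% after 6 h, and both 6 h libraries lay below the others. It fell by 7.70 points from 0 h and by 7.98 points from 2 h (Fisher's exact test, adjusted p of 0.0138 and 0.00517). It passed the standard filter at 0 h and 2 h but in neither 6 h library. Both falls were therefore tested on a site that entered through the time points where it was high. The first of these falls was lost without the 0 h replicate 2 library and the second without the 2 h replicate 1 library, and both without the 6 h replicate 1 library (adjusted p of 0.209, 0.101, 0.118, and 0.0804). The first site lay 8.93 points higher at 6 h than at 0 h, which did not pass (adjusted p of 0.157).

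The fourth repeated site, in the UTR of Pcdhb22 (chr18:37522753, +), had 11.2% and 5.77% before KCl, 10.2% and 15.3% after 2 h of it, and 13.3% and 7.80% after 6 h. Its libraries overlapped between all time points, and no difference passed Fisher's exact test (adjusted p of 0.809 for 0 h vs. 2 h). It is the only one of the 13 sites described next in the motif CTCCA, which the methyltransferase NSUN6 is known to use and which was searched here on the transcript strand.

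A second set of sites was formed after the data had been seen, because the standard filter left so few. It holds cytosines with 20 or more reads in every one of the 6 libraries and a level of at least 2% over the reads of all of them together, a choice that does not use the time points. Of 5684 such sites, 13 lay in the families, 10 in coding sequence and 3 in a UTR, and 10 of them in clustered protocadherins. Between 0 h and 2 h, 3 of the 13 rose, where 9.64% of the 5684 rose and 2.57% fell. Between 0 h and 6 h, 2 rose and 1 fell, where 9.15% rose and 3.1% fell. Between 2 h and 6 h, 2 rose and 3 fell, where 8.41% rose and 6.56% fell. The 4 repeated sites are among the 13, and 7 of the 13 changed in no comparison. limma and the quasi-binomial model called 0 of the 13 in any comparison, with at most 2 at an unadjusted p under 0.05.

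Among these sites, the smallest p at 2 h was that of the Pcdh10 cytosine shown above. It was unconverted in 28 of 1277 and 15 of 874 reads at 0 h, in 134 of 1946 and 77 of 1282 reads at 2 h, and in 87 of 1825 and 78 of 1980 reads at 6 h. Its level was 2.19% and 1.72% before KCl, 6.89% and 6.01% after 2 h of it, and 4.77% and 3.94% after 6 h, without overlap between the time points. The 95% Wilson intervals were 1.52 to 3.15% and 1.04 to 2.81% at 0 h and 5.84 to 8.10% and 4.83 to 7.44% at 2 h. The rise of 4.49 points at 2 h and the difference of 2.40 points at 6 h passed Fisher's exact test (adjusted p of 7.36e-14 and 3.24e-05). From 2 h to 6 h the level fell by 2.09 points (adjusted p of 0.000888), which was lost without the 2 h replicate 1 library (adjusted p of 0.117). Among 34 other cytosines listed within 50 bases, the highest level in any library was 0.873%. Both the level of this cytosine and the coverage of Pcdh10 were higher at 2 h and 6 h than at 0 h, but the level was highest at 2 h and the coverage at 6 h. This level stayed below the 10% of the standard filter in every library.

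The Cdh13 cytosine shown above was read most often, with 3908 to 6413 reads per library. Its level was 3.29% and 2.66% before KCl, 3.43% and 3.91% after 2 h of it, and 3.46% and 3.19% after 6 h. Both 2 h libraries lay above both 0 h libraries. The 0.69 points from 0 h to 2 h had an unadjusted p of 0.0234 in Fisher's exact test and an adjusted p of 0.139, so that a change was not shown even at this depth. Its neighbours within 50 bases reached 0.480% at most. The Cdh4 cytosine had 6.80% and 1.92% before KCl, 6.92% and 3.67% after 2 h of it, and 5.41% and 1.45% after 6 h, on 69 to 130 reads, and its time points overlapped.

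In the gamma cluster, the Pcdhga12 site (chr18:37766940) had 4.11% and 3.58% before KCl, 3.31% and 2.41% after 2 h of it, and 7.55% and 6.73% after 6 h, and rose by 4.28 points from 2 h to 6 h (Fisher's exact test, adjusted p of 0.014). This call was lost without the 2 h replicate 2 library or the 6 h replicate 1 library (adjusted p of 0.198 and 0.130). A UTR site of the gamma constant exons (chr18:37841024) had 1.95% and 1.60%, 1.90% and 2.90%, and 7.20% and 4.37%, and rose by 4.01 points from 0 h to 6 h (adjusted p of 0.0121). Without the 6 h replicate 1 library the rise was 2.60 points with an adjusted p of 0.307, and it was also lost without either 0 h library (adjusted p of 0.170 and 0.0942). Its rise of 3.38 points from 2 h to 6 h (adjusted p of 0.0388) was lost without either 2 h library or without the 6 h replicate 1 library (adjusted p of 0.353, 0.0573, and 0.554). In that library a neighbour within 50 bases reached 6.02%, whereas in the others the neighbours reached 2.19% at most, and this library also had the most positions in runs. Over the 145 positions that carry 22 gamma names the unconverted share was 0.572% in that library and 0.167% to 0.233% in the others. The sites of the Pcdha5, Pcdha9, and Pcdhgb6 exons and a further site of Pcdhga11 had mean levels of 1.35% to 6.17% and passed in no comparison.

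**Figure D4:**
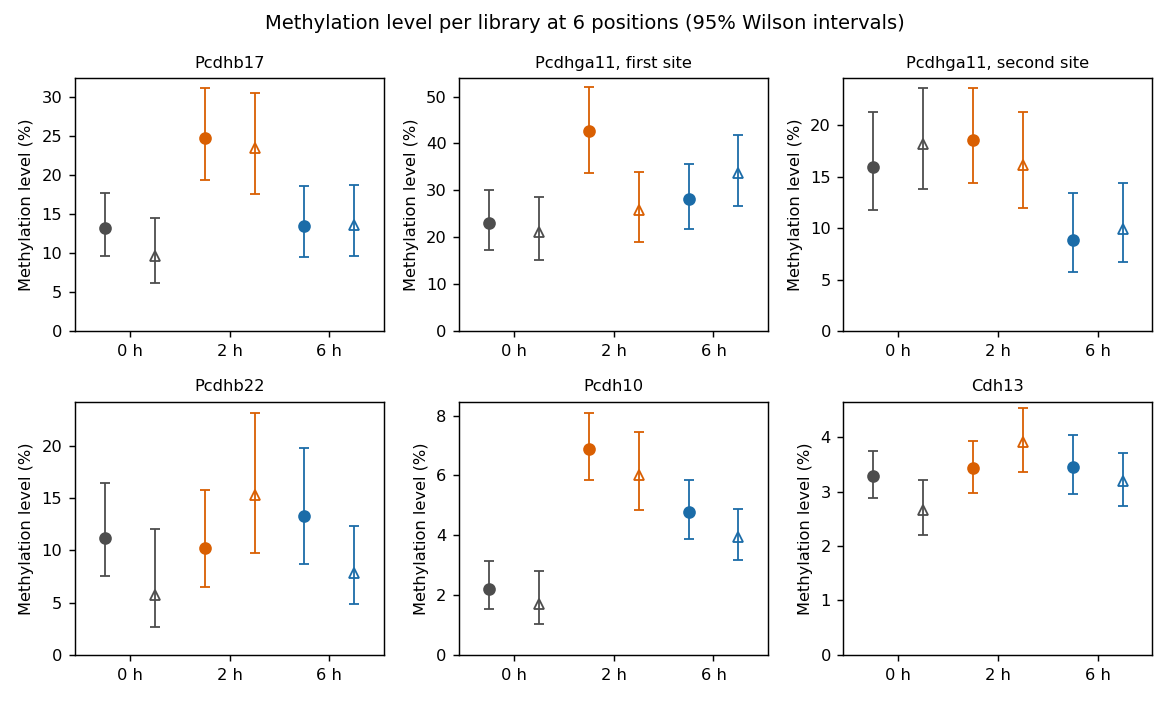
Methylation level (%) of 6 family positions in each of the 6 libraries, with 95% Wilson intervals as error bars, colours for time, filled circles for replicate 1, and open triangles for replicate 2. Each panel has its own axis from 0. Pcdhb17 and Pcdh10 are highest in both 2 h libraries, the second site of Pcdhga11 is lowest in both 6 h libraries, and the libraries of Pcdhb22 overlap between time points.

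The bases after the cytosine, which the choice of the 13 sites did not use, differed among them. The 2 bases that start 2 positions after the cytosine were both G at 4 of the 13 sites (30.8%), at 15.4% of the 5684 sites, and at 8.87% of all cytosines with 20 or more reads in every library (9.12% of those in the families). The Pcdh10 context CGAGG and the Cdh13 context CAAGG do not have it, with their G pair 1 base further, whereas the Cdh4 context CCGGG does. This is a description of few sites.

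The background of unconverted reads was not uniform among members. Over the positions listed in all libraries with a level under 10%, the unconverted share of Pcdh8 was 0.205% and 0.249% before KCl, 0.0826% and 0.0881% after 2 h of it, and 0.0832% and 0.0968% after 6 h, while its coverage rose. That of Pcdh10 was 0.212% and 0.198%, 0.297% and 0.277%, and 0.272% and 0.247%, and its 46 positions include the cytosine described above. The 145 positions with 22 gamma names reached the highest share, 0.572% in the 6 h replicate 1 library. Cdh13 lay between 0.143% and 0.221% and Cdh2 between 0.169% and 0.296%. The median over all names was 0.122% to 0.157%, highest in the 6 h replicate 1 library. Positions enter this share only with at least 1 unconverted read in each library, so that at low coverage the share has a floor, and what the depth contributes to the fall in Pcdh8 was not tested.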

How the data were processed

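Bisulfite-treated mRNA of 6 cultures was used. The authors trimmed reads with Trim Galore, aligned them to GRCm38 with meRanRh, and called cytosines with meRanCall of meRanTK. Per the file headers each deposited list gives, by cytosine, the coverage and unconverted reads as counts and the methylation level as a fraction. Deposited p-values were 0 throughout and were not used. A cytosine was listed only with at least 10 reads and 1 unconverted read, so that coverage is seen only there. The study's further filters against false sites were not repeated, and other assays were not analysed here. Depth was 1564646 to 2380612 listed positions per library. The members, the gene lists, the windows, and the low-level sites were chosen with earlier results of these data known.

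Exons came from GENCODE M21. Coverage was averaged over positions with at least 20 reads in all 6 libraries and then put on the log2 scale, or averaged as log2 over 50-base windows. It was scaled between libraries and tested with limma 3.58.1 in R 4.3.3 on all 6 libraries. Windows need a listed cytosine in every library, so that 30 members drop out. Sites with at least 10 reads were tested with two-sided Fisher's exact tests on summed reads (scipy 1.17.1), and all p-values were adjusted by Benjamini-Hochberg at 0.05. All members with a tested feature or site are given, and for other gene lists those with the largest changes past the threshold. Alternatives were other scalings, minimums, window widths, edgeR 4.0.16, limma and quasi-binomial models for sites, a replicate block, and leaving out each library. On simulated data, 140 of 200 window features changed by 1.5-fold were recovered with 4 false calls, and Fisher's test recovered 44 of 200 sites changed by 10 points with 1 false call without spread between replicates, and 67 with 106 false calls with such spread. Only these 200 of 6467 window features changed there, whereas 40% to 67.9% of the real features were called. The simulated counts thus do not give the error rate of the real calls. Python 3.11.15, numpy 2.4.6, pandas 2.3.3, and matplotlib 3.10.9 were used.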

Additional observations from a re-analysis of the deposited data

How the results depend on the processing

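Of 35 calls of family features over windows, 24 were kept under every alternative run on windows and 11 were lost under at least 1, and no family result changed its direction past the threshold. Over positions listed in all libraries, where 4 single genes were measured, the window calls of Pcdh10 at 2 h, Cdh2 at 6 h, and Cdh13 between 2 h and 6 h did not pass (adjusted p of 0.0519, 0.109, and 0.259), of which that of Pcdh10 is among the 24. In 31 cases a family difference that was not called passed under another setting. These were Cdh11, Pcdhgb6, and the alpha constant exons at 6 h, Cdh8, Pcdh7, Pcdh9, Pcdhb7, Pcdhgc3, Pcdh10 over positions, and the set of 13 alpha names at 2 h, and Cdh8, Pcdh8, Pcdhga12, the alpha constant exons, and the set of 24 names between 2 h and 6 h. Counts over all genes moved with the unit. Over positions listed in all libraries, 759, 1666, and 1390 genes changed (at 2 h, at 6 h, and between these times, in this order throughout), and over windows of 50 bases 2588, 4392, and 4173 features, of which more were tested. Of the 2527, 2661, and 2772 sites tested, Fisher's exact test called 267, 184, and 332, limma 110, 23, and 0 (173 at an unadjusted p under 0.05 for the last), and the quasi-binomial model 0 in each (92, 46, and 54). Asking for a difference of at least 10 points left 148 and 96 sites at 2 h and 6 h, and the standard filter in at least 1 library gave 302 and 555 at 6 h and between the times. Of the 5684 low-level sites, Fisher's exact test called 694, 696, and 851, limma 0 in each (705, 371, and 328 at an unadjusted p under 0.05), and the quasi-binomial model 0 in each (156, 116, and 81). The cause was not tested.

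Leaving out 1 library gave 319 to 943, 1218 to 1882, and 874 to 1534 genes, 1515 to 2923, 3608 to 4848, and 3277 to 4465 window features, 176 to 319, 143 to 822, and 225 to 1015 sites, and 335 to 621, 418 to 1193, and 355 to 1326 low-level sites. The highest site counts at 6 h came from the 6 h replicate 1 library alone. The replicate numbers are shared between time points, but nothing shows that they pair the cultures, since deviations of same-numbered libraries correlated at 0.37, -0.13, and -0.12 over windows. With the replicate number as a block, 710, 1630, and 1351 genes, 2452, 4371, and 4164 window features, 270, 234, and 477 sites, and 725, 809, and 1137 low-level sites changed. The block ended the calls of Cdh4 at 2 h and Cdh2 at 6 h (adjusted p of 0.0588 and 0.0501). No change of coverage is given for the 30 members with under 5 windows.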
